A study of Danio rerio with 6 samples.

Results

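The 5 genes described here encode fibroblast growth factor (FGF) ligands that are expressed at the margin of the zebrafish blastula and gastrula, namely *fgf3*, *fgf8a*, *fgf8b*, *fgf17* and *fgf24*. They were chosen by name, and every array feature (1 probe on the array) to which the platform annotation gives 1 of these symbols was read, 9 of 45220 features and 5 of 14434 named genes. *fgf8a* had 3 features, *fgf8b* and *fgf17* had 2 each, and *fgf3* and *fgf24* had 1 each. Both fish groups were AB embryos taken whole at sphere stage, a late blastula stage soon after transcription of the zygotic genome begins. In 3 samples the embryos had received 50 pg of mRNA for the Nodal ligand gene *ndr1* in 1 nl of water (*ndr1*-injected), and in the other 3 samples 1 nl of water alone (control-injected). Each sample was RNA from 200 embryos hybridised to a one-colour Agilent array, and values are log2 signals that the authors had normalised by qspline. Injected mRNA reaches cells that would not normally make it, and whole embryos were used, so more cells that express a gene and more RNA per cell cannot be told apart here.

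FGF ligands are secreted proteins that bind receptor tyrosine kinases together with heparan sulphate and signal through Ras and the MAP kinases to Ets transcription factors. In the zebrafish blastula, Nodal signals at the margin start the expression of mesoderm and endoderm genes, and FGF ligands made at the margin maintain and extend mesodermal gene expression. Fgf8, Fgf17, Fgf18 and Fgf24 belong to one subfamily of ligands, while Fgf3 belongs to another. The older literature uses the name *fgf17* or *fgf17a* for *fgf8b* and *fgf17b* for *fgf17*. The features were therefore matched by gene number as well as by symbol, and both routes gave the same 9.

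Nodal signals are carried to the genome by Smad2 with partners such as the forkhead factor Foxh1. The study's table of Smad2-bound regions (genome build Zv9) lists a Foxh1 motif match within regions placed near 4 of the 5 ligand genes, and these 5 predicted matches are shown as candidate sites near these genes. Capitals mark the letters AATNNACA, and the strand is not given in the sources used here.
fgf3, in chr7:54647491-54647803: atgAATAAACA
fgf8a, in chr13:28718447-28719263: ggcAATACACA
fgf17, in chr8:54940761-54941037: tgcAATAAACA
fgf17, in chr8:54943909-54944370: cagAATCCACA
fgf24, in chr14:5554976-5555417: aggAATCAACA
Over the whole table, AATNNACA was found on either strand in 281 of the 375 listed matches (74.9%), so these letters are common to the motif. A match is listed for 375 regions in all. The share of all genes near such a region is not given here, so the count of ligand genes is only a description. No listed match was placed near *fgf8b*, and whether a Smad2-bound region without a match lies near it is not given here. The arrays measured RNA and not binding.

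The array medians lay between 8.70 and 8.71, and arrays correlated at 0.820 to 0.928, more closely within the *ndr1*-injected group (0.920 to 0.926) than within the control-injected group (0.836 to 0.886). The highest correlation, 0.928, was between an *ndr1*-injected and a control-injected array. The single *ndr1* feature read 13.79, 14.85 and 13.89 in *ndr1*-injected and 10.61, 10.10 and 10.87 in control-injected embryos, higher by 3.65 ± 0.38 (SE). Of 4 margin markers 3 were higher at an unadjusted p of at most 0.02, against 1.72% of all genes. Their mean levels were 12.75 to 13.36 in *ndr1*-injected and 11.22 to 11.65 in control-injected arrays for the 4 markers together. These 4 also stand in the list of margin mesoderm and Nodal response genes counted below. They therefore do not measure margin cells apart from that response. Among markers of other parts of the embryo, 1 of 7 for the enveloping layer, 1 of 4 for the yolk syncytial layer and 0 of 4 for germ plasm were higher. In each of these lists 0 were lower. The enveloping layer genes *krt18a.1*, the higher one, and *anxa1c* differed by 1.45 and -0.78. After the subtraction of array position described below they differed by 0.92 and -1.21. Of that list only *anxa1c* then passed, as lower, against 77 of 14434 genes. Germ plasm markers had a median difference of -0.06, or 0.22 after that subtraction. The yolk syncytial layer marker that was higher, *gata6*, is also an endoderm gene. Of 4 ectoderm markers 1, *sox3*, was lower, against 1.02% of all genes. The 3 maternal markers averaged 10.92 to 11.41 in *ndr1*-injected and 11.56 to 11.84 in control-injected arrays. The part of these shifts in the ligand values was not tested. Whether replicates were separate clutches is not stated, and p-values therefore cover the spread between these 6 samples, which may be technical.

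Of the 9 ligand features, 7 had all 3 *ndr1*-injected values above all 3 control-injected values, against 7.53% of all features. Another 2 overlapped, and 0 lay wholly below, against 5.55% of all features. With limma, 5 of the 9 were higher at an unadjusted p of at most 0.02, against 1.17% of all features, and 0 were lower, against 1.18%. These were the 3 features of *fgf8a*, the feature of *fgf3* and 1 of the 2 features of *fgf17*. After Benjamini-Hochberg adjustment over all features, 0 of the 9 passed 0.05, as did 0% of the array. With 3 arrays against 3, the smallest two-sided p of an exact permutation test is 0.1.

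**Figure D1:**
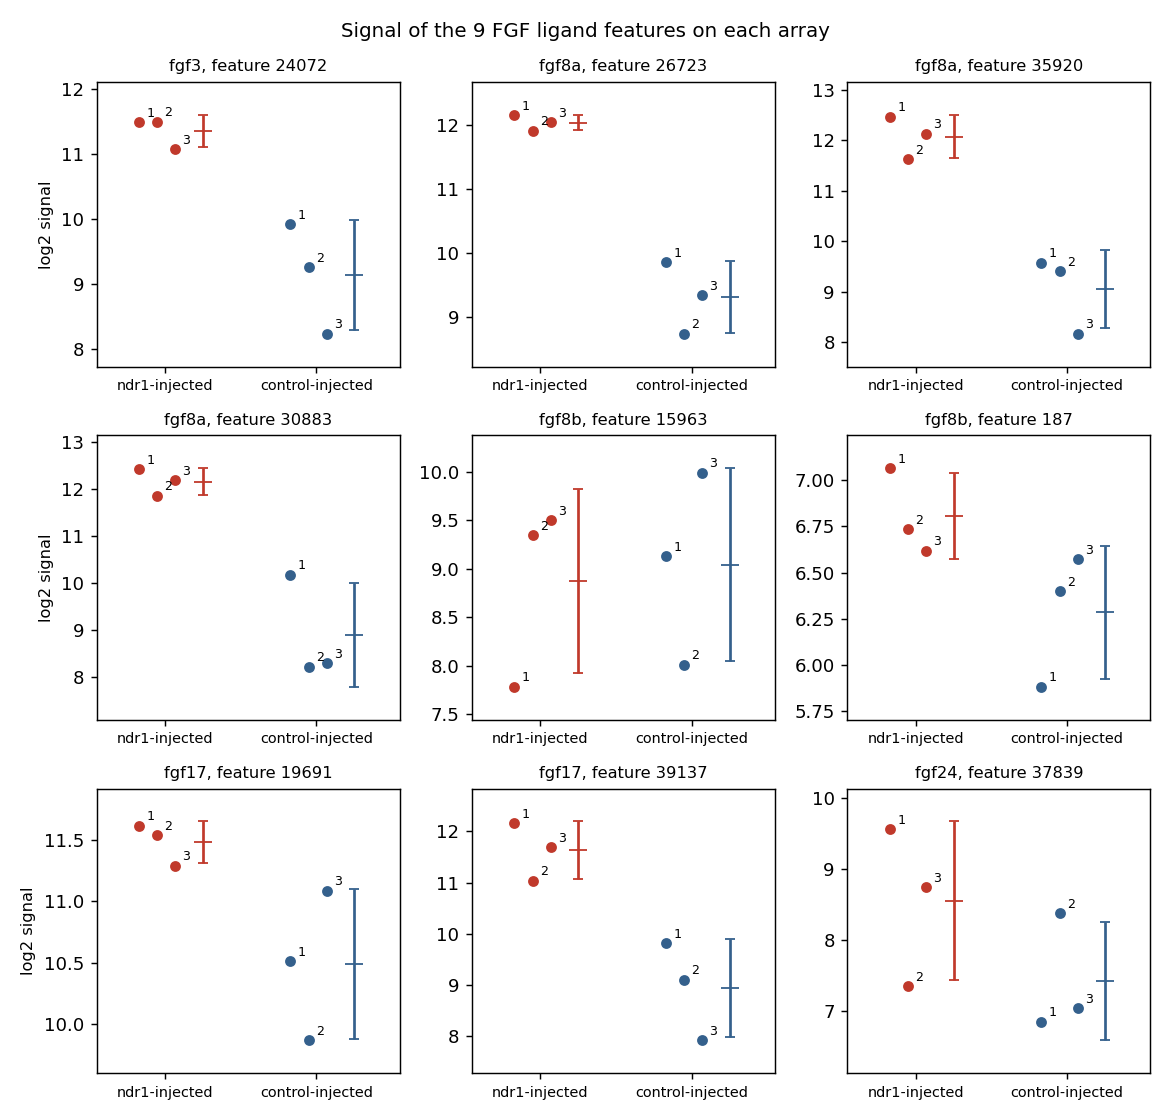
Log2 signal of each of the 9 FGF ligand features, in a panel with its own axis, for the 3 *ndr1*-injected arrays (left, red) and the 3 control-injected arrays (right, blue). Points carry the replicate number, and bars give the mean and SD. The groups stand apart for *fgf3*, *fgf8a* and *fgf17*, lie 0.05 apart for *fgf8b* feature 187, and overlap for *fgf8b* feature 15963 and for *fgf24*.

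*fgf8a*, mutated in *acerebellar* fish and known for its part in posterior mesoderm and in the midbrain-hindbrain boundary, had the largest mean difference of the 5 ligands. Its feature 26723 read 12.15, 11.91 and 12.05 in *ndr1*-injected embryos, against 9.86, 8.74 and 9.35 in control-injected embryos. Feature 35920 read 12.47, 11.62 and 12.12 in *ndr1*-injected embryos, against 9.57, 9.40 and 8.16 in control-injected embryos. Feature 30883 read 12.43, 11.87 and 12.19 in *ndr1*-injected embryos, against 10.18, 8.22 and 8.30 in control-injected embryos. On all 3 features the groups were separated, with gaps of 2.05, 2.05 and 1.69 log2 units between the lowest *ndr1*-injected and the highest control-injected array. The *ndr1*-injected arrays lay close together, and control-injected replicate 1 was the highest of the controls each time.

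The difference for *fgf8a* was 2.72 ± 0.35 (SE) on feature 26723, 3.03 ± 0.44 on feature 35920 and 3.26 ± 0.54 on feature 30883, or 6.59-, 8.14- and 9.60-fold. The adjusted p of limma over features was 0.231, 0.318 and 0.474, and each exact permutation p was 0.1. The groups overlapped in each pairwise comparison of the 3 features, at -0.31 ± 0.56, -0.54 ± 0.41 and -0.24 ± 0.54 (SE, exact permutation p = 0.7, 0.4 and 0.9). So few arrays cannot show that the features agree. After the subtraction of array position described below these were -0.42 ± 0.34, -0.75 ± 0.37 and -0.33 ± 0.17 (SE). With each array left out in turn, feature 26723 stayed between 2.43 and 2.99, feature 35920 between 2.58 and 3.29 and feature 30883 between 2.92 and 3.90.

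*fgf8b*, a close relative of *fgf8a*, was measured on 2 features that did not share its pattern. Feature 15963 read 7.78, 9.35 and 9.50 in *ndr1*-injected embryos, against 9.13, 8.01 and 9.99 in control-injected embryos, so the groups overlapped over most of their range. The difference was -0.17 ± 0.62 (SE, adjusted p of limma 0.945, exact permutation p = 0.8). Its sign rested on single arrays: it was 0.38 without *ndr1*-injected replicate 1 and 0.31 without control-injected replicate 3, and ran down to -0.68 without control-injected replicate 2, with -0.48 and -0.40 without *ndr1*-injected replicates 3 and 2.

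Feature 187 of *fgf8b* read 7.07, 6.73 and 6.62 in *ndr1*-injected embryos, against 5.88, 6.40 and 6.57 in control-injected embryos. The groups were separated by 0.05 log2 units, and the difference was 0.52 ± 0.31 (SE, adjusted p 0.741 by limma), or 0.32 without control-injected replicate 1. This was the only one of the 9 features whose mean over all 6 arrays lay below 7.79, the limit used for dim signal. That limit marks off the dimmest 25% of all features. After adjustment neither feature of this ligand passed.

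*fgf17*, another member of the Fgf8 subfamily expressed at the margin, had separated groups on both features but by unequal amounts. Feature 39137 read 12.16, 11.04 and 11.69 in *ndr1*-injected embryos, against 9.81, 9.10 and 7.92 in control-injected embryos, which was higher by 2.68 ± 0.52 (SE) or 6.42-fold. Feature 19691 read 11.61, 11.54 and 11.29 in *ndr1*-injected embryos, against 10.52, 9.87 and 11.09 in control-injected embryos, a difference of 0.99 ± 0.36 or 1.98-fold. Both had an adjusted p of 0.726 by limma over features, and the unadjusted p was 0.00100 and 0.0267.

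The difference on feature 19691 of *fgf17* was smaller than that on feature 39137 by 1.69 ± 0.87 log2 units (SE), and the array-by-array difference between the features separated the groups. The exact permutation p was 0.1, and 0.5 after adjustment over the 5 pairs of features of the same ligand. Control-injected replicate 3 was the highest control on feature 19691 and the lowest on feature 39137. After the subtraction of array position described below, this array was the lowest control on both, at 10.28 and 7.98. Feature 19691 minus feature 39137 was then -1.45 ± 0.48 (SE). Which transcripts the 2 features detect is not given in the sources used here.

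*fgf24*, which acts with *fgf8a* in posterior mesoderm and is needed for pectoral fin buds, was measured on 1 feature. It read 9.56, 7.35 and 8.74 in *ndr1*-injected embryos, against 6.85, 8.38 and 7.04 in control-injected embryos. Thus *ndr1*-injected replicate 2 lay below control-injected replicate 2, while the other *ndr1*-injected arrays lay above all 3 controls. The mean over all 6 arrays was 7.99, but the control-injected mean, 7.42, lay below the dim limit of 7.79, as did *ndr1*-injected replicate 2. The difference was 1.13 ± 0.63 (SE) or 2.19-fold. Its adjusted p was 0.740 by limma, with an exact permutation p of 0.2. It was 0.63 without *ndr1*-injected replicate 1 and 1.73 without *ndr1*-injected replicate 2.

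*fgf3*, which acts with *fgf8a* in hindbrain and ear development, read 11.50, 11.51 and 11.08 in *ndr1*-injected embryos, against 9.93, 9.27 and 8.24 in control-injected embryos. The lowest *ndr1*-injected value was 1.15 log2 units above the highest control. This made 2.22 ± 0.44 (SE) log2 units, or 4.65-fold (unadjusted p 0.00117, adjusted p 0.726 by limma over features). It stayed between 1.76 and 2.61 with each array left out in turn. In 8 of the 9 ligand features, all but that of *fgf24*, the SD was smaller among *ndr1*-injected than among control-injected arrays. This was so for 4 of the 9 once the trend with array position was subtracted. The share of all features is not given here. Over the whole array, control-injected arrays also correlated less closely (0.836 to 0.886) than *ndr1*-injected arrays (0.920 to 0.926).

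At gene level, with the brightest feature of each gene, *fgf8a* ranked 7 of 14434 genes by p (adjusted p 0.112), *fgf3* ranked 39 (0.486), *fgf17* 445 (0.711), *fgf24* 2284 (0.744) and *fgf8b* 12200 (0.944). For *fgf17* this is feature 19691, the smaller of its differences. At an unadjusted p of at most 0.02, 2 of the 5 genes were higher, against 1.72% of all genes. Groups separated upwards for 3 of the 5 genes, against 8.11% of all genes, and downwards for 0, against 5.86%. The adjusted threshold was passed by 0.0208% of genes and by 0 of the 5.

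The ligands were then set against one another within each array, with the features of a ligand averaged after centring on their control-injected mean. The mean difference was 3.003 for *fgf8a*, 2.22 for *fgf3*, 1.84 for *fgf17*, 1.13 for *fgf24* and 0.18 for *fgf8b*. Of 10 pairs of ligands, 4 separated the groups, each with an exact permutation p of 0.1, the smallest this test allows, and an adjusted p of 0.25 over the 10 pairs. Ligands next to each other in this order overlapped in every case.

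Of these 4 pairs, 3 involved *fgf8b*. The difference of *fgf8a* exceeded that of *fgf8b* by 2.83 ± 0.69 log2 units (SE), with array-by-array differences of 2.34 to 3.50 in *ndr1*-injected and -1.10 to 0.94 in control-injected embryos. For *fgf3* over *fgf8b* the excess was 2.04 ± 0.83, or 1.28 without control-injected replicate 3, and *fgf8b* minus *fgf17* was -1.66 ± 0.57, so *fgf17* had the larger difference. The 4th pair was *fgf8a* over *fgf17*, at 1.17 ± 0.19, with 1.09 to 1.26 in *ndr1*-injected and -0.27 to 0.34 in control-injected embryos. That pair, like *fgf3* against *fgf17*, depended on the choice of feature: with feature 39137 alone for *fgf17* it was 0.32 ± 0.34 and the groups overlapped, a comparison chosen after the values had been seen. For *fgf3* against *fgf8a* (-0.79 ± 0.33) and against *fgf17* (0.38 ± 0.40), and for *fgf24* against each of the others, the groups overlapped. *fgf3* minus *fgf17* was -0.46 with feature 39137 alone, 1.23 with feature 19691 alone, 0.04 without control-injected replicate 3 and 0.86 ± 0.07 after position subtraction, so no order of this pair can be given.

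Signals drifted across the surface of each array, so the deviation shared by neighbouring features was also subtracted, in a window of 9 by 9 features on a grid of 85 columns inferred from the feature numbers. At the place of the *fgf3* feature, that shared deviation was -0.17, -0.05 and -0.16 in *ndr1*-injected replicates 1, 2 and 3, against 0.78, 0.20 and -0.03 in control-injected replicates 1, 2 and 3. At feature 15963 of *fgf8b* it was -1.005 in *ndr1*-injected replicate 1 and -0.77 in control-injected replicate 2, the 2 arrays with the lowest readings. At *fgf24* it was -0.48 in *ndr1*-injected replicate 2 and 0.75 in control-injected replicate 2, the 2 arrays that crossed. At feature 19691 of *fgf17* it was 0.81 in control-injected replicate 3, the highest control there. These arrays thus deviated in the same direction for features printed nearby.

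With this trend subtracted, the SE became smaller for all 9 features. The differences were 2.67 ± 0.19, 3.10 ± 0.36 and 3.42 ± 0.36 (SE) for *fgf8a* features 26723, 35920 and 30883, with adjusted p of 0.00624, 0.0417 and 0.0279 by limma over features. For *fgf3* the difference was 2.66 ± 0.28 with an adjusted p of 0.0279. These 4 of 9 features passed, against 0.0597% of all features. The same 4 passed with windows of 15 and 25, for which the share of all features is not given here. With a window of 5 only feature 26723 did. The trend window and the ligands had both been chosen with earlier results of these arrays known.

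The other ligands did not pass after subtraction, although 7 of the 9 features were higher at an unadjusted p of at most 0.02, against 1.42% of all features, and 7 had separated groups, against 6.82%. At gene level 4 of 5 were higher at that p, against 1.79% of all genes. *fgf8a* and *fgf3* had adjusted p of 0.00278 and 0.0150 by limma over genes, and 0.111% of all genes passed upwards. *fgf17* differed by 2.52 ± 0.43 and 1.07 ± 0.22 (SE) on features 39137 and 19691, with adjusted p of 0.252 and 0.488. *fgf24* differed by 1.28 ± 0.38 and its groups no longer overlapped, with 9.35, 7.83 and 8.48 in *ndr1*-injected and 6.94, 7.62 and 7.25 in control-injected embryos (adjusted p 0.737). The 2 features of *fgf8b* came together near 0, at 0.06 ± 0.26 and 0.09 ± 0.29, and the groups of feature 187 then overlapped.

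**Figure D2:**
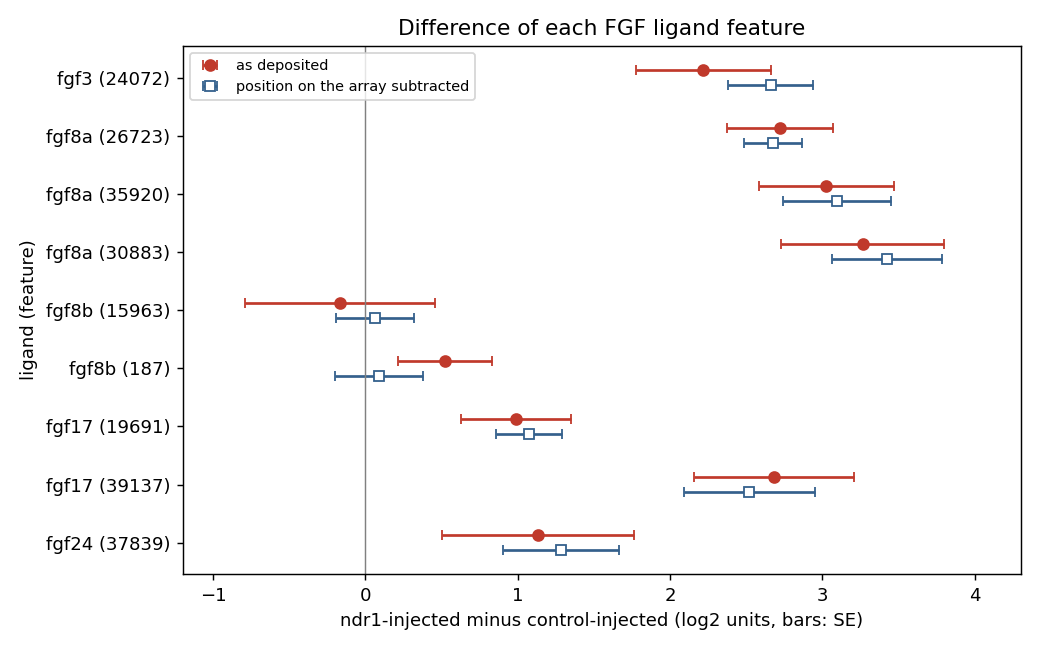
Difference between *ndr1*-injected and control-injected embryos in log2 units for each FGF ligand feature (y axis), with bars for the SE, as deposited (red circles) and after the trend with array position was subtracted (open blue squares). All *fgf8a* features lie between 2.67 and 3.42 in both, the 2 features of *fgf17* lie apart, and both *fgf8b* features lie near 0 after subtraction.

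The rest of the FGF family was counted on the brightest feature of each gene. Of 24 other FGF genes measured, 0 were higher and 0 were lower at an unadjusted p of at most 0.02, against 1.72% and 1.02% of all genes. Their median difference was 0.05, with 0.01 over all genes. The list was taken by gene name, and not every product need be a secreted ligand. They ran from -0.89 to 1.35. *fgf18b*, the remaining measured member of the Fgf8 subfamily, differed by -0.54 ± 0.39 (SE), with 8.07 to 9.07 in *ndr1*-injected and 8.57 to 9.71 in control-injected embryos. The 3 genes of this list with the smallest p were *fgf4* (1.35 ± 0.47), *fgf19* (0.84 ± 0.29) and *fgf12b* (0.59 ± 0.32). Of the 24, 2 had groups that did not overlap, *fgf4* and *fgf19*, both higher, a share close to the 8.11% of all genes. After position subtraction 1 of the 24 was higher at an unadjusted p of at most 0.02, *fgf4* (1.22), against 1.79% of all genes. On dimmer features *fgf13a* (1.07 ± 0.41) and *fgf13b* (1.16 ± 0.40, unadjusted p 0.0198 by limma) also had separated groups, at 0.83 and 0.46 after subtraction.

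*fgf4* and *fgf19* lie next to *fgf3*. In the GRCz12tu RefSeq annotation *fgf4*, a ligand known from the tail bud, is the next protein-coding gene after *fgf3*, and *fgf19*, the relative of a mammalian hormone, follows it. *fgf4* read 10.99, 10.25 and 9.97 in *ndr1*-injected embryos, against 9.63, 9.43 and 8.11 in control-injected embryos. *fgf19* read 9.15, 8.34 and 8.38 in *ndr1*-injected embryos, against 7.96, 7.61 and 7.81 in control-injected embryos. The groups were 2.55-fold apart for *fgf4* and 1.78-fold for *fgf19*, and these genes were taken up because their groups separated, so the shared direction is a description. For *fgf4* and *fgf19* the unadjusted p was 0.0231 and 0.0335, the adjusted p 0.726 for both by limma over features, and the exact permutation p 0.1 for both.

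**Figure D3:**
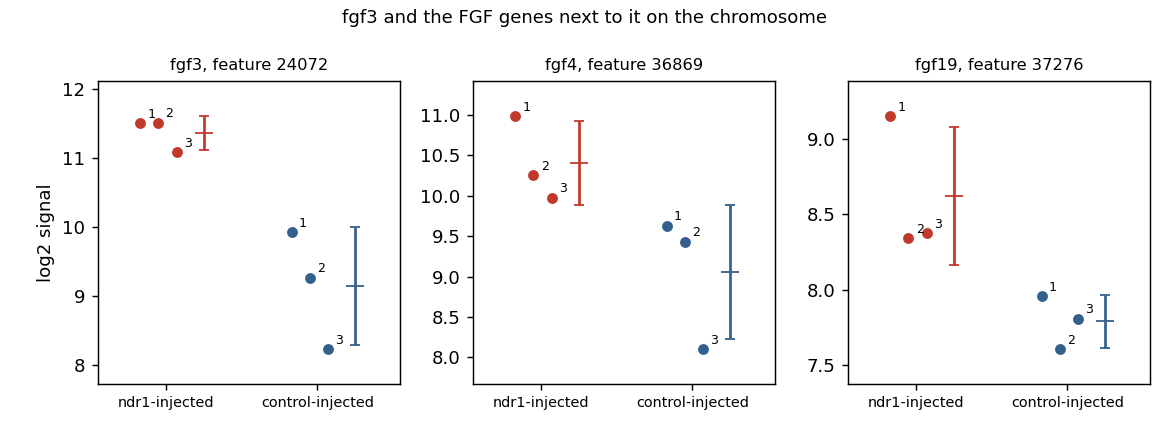
Log2 signal of *fgf3*, *fgf4* and *fgf19*, adjacent genes in the GRCz12tu annotation, each in a panel with its own axis, for the 3 *ndr1*-injected arrays (left, red) and the 3 control-injected arrays (right, blue). Points carry the replicate number and bars give the mean and SD; every *ndr1*-injected value lies above every control-injected value in each panel.

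On the other side of *fgf3*, *zgc:153993* differed by 1.09 ± 0.48 (SE, unadjusted p = 0.0584 by limma), and by 1.02 after position subtraction (unadjusted p = 0.0127). The 2 protein-coding genes on either side of each ligand were looked up in this way, and 16 of the 20 were measured. Beside *fgf8a*, the genes *lbx1a*, *slc2a15a*, *fbxw4* and *wbp1la* differed by -0.37, -0.71, -0.11 and -0.29, and by 0.02, -0.16, 0.38 and -0.28 after position subtraction. Beside *fgf17*, *tubb2b* differed by 0.69 (-0.02 after position subtraction), and *nr5a1a* by 0.41. Beside *fgf24*, *lbx2*, *pcgf1* and *tlx2* differed by 0.08, 0.89 and 0.47, and beside *fgf8b*, *lbx1b*, *slc2a15b*, *dpcd* and *poll* by 0.14, -0.62, 0.42 and 0.24, none with an unadjusted p of at most 0.02 as deposited.

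The genes through which FGF ligands act were counted in the same way. Over all genes, 1.72% were higher and 1.02% lower at an unadjusted p of at most 0.02. Of 7 FGF receptor genes 0 passed an unadjusted p of 0.02 in either direction, with a median difference of -0.05. The decoy receptor gene *fgfrl1b* differed by 0.89 ± 0.32 (SE), or 0.39 after position subtraction. Its other feature differed by 0.35, or -0.31 after subtraction, and the means of both lay below the dim limit of 7.79. The receptor genes *fgfr2* and *fgfr1a* differed by 0.61 ± 0.36 and -0.43 ± 0.27, or 0.17 and 0.01 after subtraction. The dimmer feature of *fgfr2* differed by -0.35, or -0.18 after subtraction. Of 18 genes of the Ras and MAP kinase relay 0 passed, with a median of 0.18. The MAP kinase kinase gene *map2k1* differed by 1.27 ± 0.52, the adaptor gene *grb2b* by -0.51 ± 0.21 and the exchange factor gene *sos1* by 0.66 ± 0.39. After subtraction these were 1.02, -0.15 and 0.52, and *map2k1* was higher (unadjusted p 0.00458 by limma). Of 21 genes for heparan sulphate enzymes and other extracellular factors 0 passed, with a median of 0.32, among them the sulphotransferase gene *hs6st1b* (0.89 ± 0.35), *extl3* (-0.39 ± 0.21) and the glypican gene *gpc4* (0.38 ± 0.22), which were 0.33, -0.39 and 0.01 after subtraction. The medians were 0.13 and 0.09 for the relay and the extracellular list once position was subtracted.

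Among 19 FGF feedback and Ets genes, 2 were higher at an unadjusted p of at most 0.02 and 0 were lower, against 1.72% and 1.02% of all genes. The median difference was 0.14. *dusp6*, encoding a phosphatase that inactivates ERK, differed by 1.18 ± 0.23 (SE) and *flrt3*, a membrane protein gene, by 2.36 ± 0.58, while the antagonist gene *spry2* differed by 1.56 ± 0.55 (unadjusted p 0.0240). The Ets genes *etv4*, *etv5a* and *etv5b* differed by -0.21, -0.41 and 0.11, and by 0.02, 0.05 and 0.56 after position subtraction, so the first 2 changed sign. The dimmer feature of *etv5b* differed by -0.09, and by 0.05 after subtraction. As deposited, 0 passed over all genes (adjusted p of *dusp6* 0.498 by limma). After subtraction 4 of the 19 were higher at that unadjusted p, against 1.79% of all genes, *spry2* and *dusp4* with *dusp6* and *flrt3*. Of these 4, *dusp4* differed by only 0.22 ± 0.38 as deposited, with overlapping groups, and by 0.97 after subtraction. *flrt3* passed over all genes at 2.29 (adjusted p 0.0436 by limma), as did 0.111% of all genes upwards. Of 19 genes of the margin mesoderm and the Nodal response, 11 were higher and 0 lower at an unadjusted p of at most 0.02. The shares of all genes were 1.72% and 1.02%. Their median was 1.31, and 1, *gsc*, passed over all genes, as did 0.0208% of all genes. *gsc*, *tbxta* and *lft1* differed by 3.24, 2.42 and 4.195, so the 2.72 of *fgf8a* lay within the range of that list. That list was put together from genes already known to respond here, and it includes all the margin markers counted above.

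**Figure D4:**
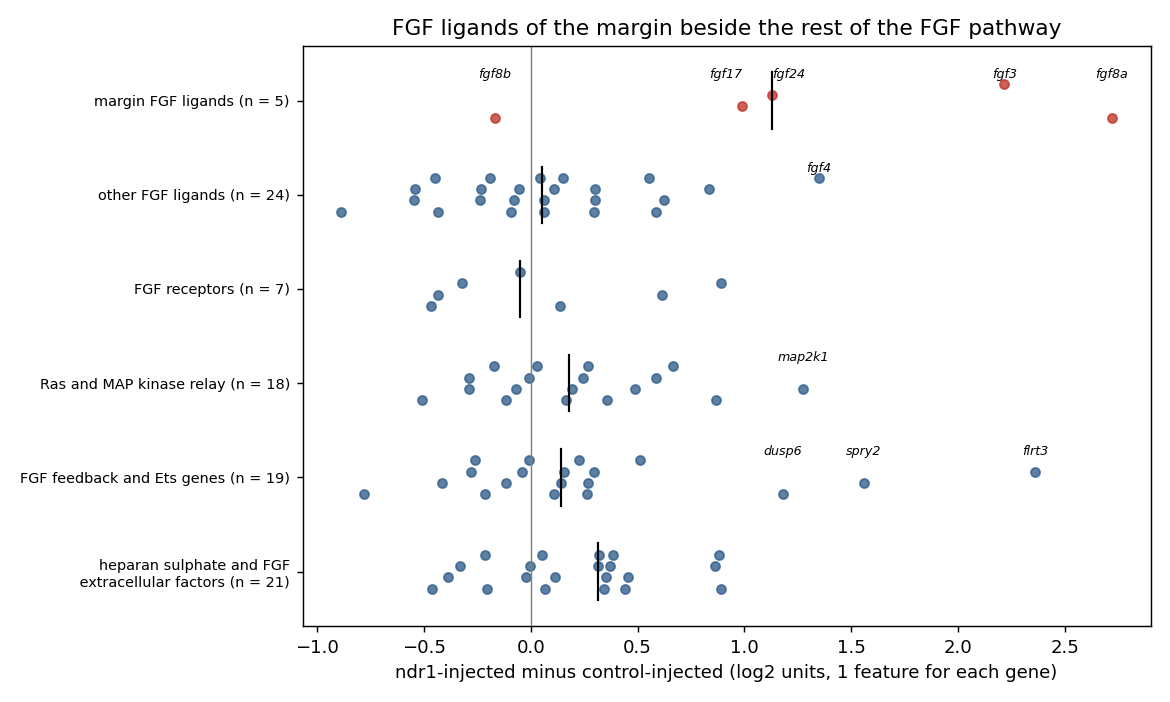
Difference between *ndr1*-injected and control-injected embryos in log2 units, with 1 feature for each gene, for the 5 margin FGF ligands (top, red) and 5 lists of other FGF pathway genes (blue); bars mark the median of each list and n the genes measured, with names for the 5 ligands and for other genes beyond 1. On the features drawn, *fgf8a* and *fgf3*, at 2.72 and 2.22, lie beyond every gene labelled as another FGF ligand, the next being *fgf4* at 1.35. That list was taken by gene name. *fgf17* is drawn on feature 19691 (0.99), while its feature 39137, not drawn, differed by 2.68.

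Finally, the genes whose 6 values were most like those of each ligand were found, by the root mean square distance (in log2 units) between values centred on the control-injected mean, over 6 arrays and 14433 other genes. Nearest to *fgf8a* were *cyp27c1*, which encodes a retinoid-desaturating enzyme, *mixl1*, a homeobox gene of mesendoderm, and the T-box gene *tbxta*, at 0.30, 0.34 and 0.38. Nearest to *fgf3* were the endoderm gene *gata5*, the repressor gene *hes6* and the zinc finger gene *zic2a*, at 0.35, 0.38 and 0.52. Nearest to *fgf17*, on feature 19691, were *bambia*, a pseudoreceptor gene, *wu:fb18g01* and *hoxa3a*, at 0.12, 0.13 and 0.14, and nearest to *fgf24* were *ppp1r3cb*, *nckap5l* and the endoderm gene *sox17*, at 0.34, 0.42 and 0.44. The genes nearest to *fgf8b*, on feature 15963, were *bscl2*, *col4a5* and *ribc1*, at 0.11, 0.13 and 0.16, with differences of -0.20, 0.00 and -0.37. These likenesses take in both the difference between groups and the trend with array position, and the arrays are shared.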

How the data were processed

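RNA from 6 samples of whole embryos was labelled with an Alexa Fluor dye and hybridised to Agilent zebrafish arrays. The deposited values are log2 signals, 1 for each feature on each array; the authors scanned with GenePix, applied qspline normalisation and used oneChannelGUI. The log2 scale was read from the range of the values. Sources used here name no background correction, detection call, slide or scan time. The study's general injection methods name another control and amount, and the labels were followed. Groups and replicate numbers come from the sample titles.

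The platform annotation gave 1 symbol for 21061 features and several for 0, and did not list 24159. Entrez numbers updated 20133 of these symbols and accessions 409, and 519 stayed as listed. All 45220 features were fitted with limma 3.58.1 in R 4.3.3 with group as the only term, followed by Benjamini-Hochberg adjustment. Errors are moderated standard errors, except for differences between ligands and between features of the same ligand, where they come from within-array ratios. In simulated data of 45220 features, 0%, 18%, 58% and 66% of features changed by 1, 2, 3 and 4 log2 units passed the adjusted threshold. The simulated noise was independent between features, without a trend across the array, and only a small part of the features was changed. These shares therefore need not hold for the real arrays. The members, gene lists and alternatives were chosen with earlier results of these data known. Named genes are all features of the 5 ligands, *ndr1*, for each list up to 3 genes lowest in p, and the 3 genes nearest to each ligand; *fgf18b*, the Ets genes, the neighbours on the chromosome and single marker genes were named after values had been seen. Deviations of same-numbered arrays correlated at 0.18, -0.10 and 0.04. Correlations of differently numbered arrays are not given here, so whether the numbers mark pairs was not settled. The numbers were used only as a block in an alternative fit described below.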

Additional observations from a re-analysis of the deposited data

How the results depend on the processing

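The count of ligand features higher at an unadjusted p of at most 0.02 was 5 as fitted, 5 to 6 without each array in turn, 5 with the replicate number as a block, and 7 with position subtracted in windows of 5, 9, 15 and 25 features. Of all features, 1.17% were higher as fitted and 1.42% with a window of 9. The shares of all features under the other settings are not given here. The count of ligand genes was 2 as fitted, against 1.72% of all genes, and 4 with each of the 4 windows, against 1.79% with a window of 9. The replicate block brought no ligand feature or gene across the adjusted threshold. An intensity trend with robust variance brought the 3 *fgf8a* features (adjusted p 0.00124, 0.00404 and 0.00832) and *fgf17* feature 39137 (0.0447) past the adjusted threshold, and at gene level *fgf8a* (0.000511) and *fgf3* (0.0379). How many of all features and genes passed under that fit is not given here, so these passes are not set apart from the rest of the array. Without any 1 array, no ligand feature passed (adjusted p 0.359 to 0.991). *fgf8b* changed sign: feature 15963, also its gene-level value, lay between -0.68 and 0.38 with single arrays left out, being 0.38 and 0.31 without *ndr1*-injected replicate 1 and control-injected replicate 3, 0.063 and 0.028 with windows of 9 and 15, and the mean of its features was 0.18. Pairs of ligands that separated the groups numbered 4 as fitted, 7 with position subtracted, 4 to 6 without each array in turn, 5 with the replicate block and 3 with *fgf17* feature 39137 alone. For *fgf3* minus *fgf8a* (-0.79) the SE was 0.33 as fitted and 0.07 with the replicate block. The cause of the larger counts with position subtracted was not tested. The number of arrays, dim signal for *fgf8b* feature 187 and dim control-injected signal for *fgf24* limit these values.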
